A study of Mus musculus with 3 samples.

Results

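The butyrophilin-like genes Btnl1, Btnl2, Btnl4 and Btnl6 were described in the epithelium of the mouse small intestine. They were chosen as 4 listed gene symbols of the 31053 genes in the files, and all 4 were found. The data were single-cell RNA counts of 3 libraries, 1 a segment (duodenum, jejunum, ileum), from wildtype male C57BL/6N mice aged 12 weeks, which received no treatment. Each library held the cells of 3 mice that had been pooled, so that the spread between animals could not be measured and the segments were compared without a test. Living cells were sorted, and the sort left intraepithelial immune cells in the samples beside the intestinal epithelial cells (IECs).

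Butyrophilin-like proteins are cell surface proteins of the immunoglobulin superfamily. In the mouse gut, Btnl1 forms heteromers with Btnl6 or Btnl4 on the surface of enterocytes, and these complexes select and maintain intraepithelial gamma-delta T cells that carry the Vγ7 chain. Btnl2 is mainly known as an inhibitor of T cell activation.

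The 4 genes are neighbours on chromosome 17 in the build GRCm38 and span 163 kb from the start of Btnl2 to the end of Btnl6. Btnl2 (ENSMUSG00000024340) lies at chr17:34354822-34369495 and Btnl1 (ENSMUSG00000062638) at chr17:34377132-34386028, both on the plus strand. Btnl4 (ENSMUSG00000058435) lies at chr17:34466562-34477318 and Btnl6 (ENSMUSG00000092618) at chr17:34507804-34517352, both on the minus strand. No other gene of the GENCODE M21 annotation overlapped any of them. The coding sequences of Btnl4 and Btnl6 were 89.7% identical over 1617 aligned bases, whereas every other pair was between 57.1% and 62.4% identical. The transcripts annotated for Btnl4 and Btnl6 as protein coding end at the stop codon, while Btnl1 has 252 bases and Btnl2 764 to 767 bases after it. Since the libraries were read from the 3′ end, the annotated end sets how many reads a gene can receive, and levels were therefore compared within a gene and not between genes. Of the 50-base stretches in the last 500 bases of the transcripts, 4.43% for Btnl4 and 8.76% for Btnl6 occurred in transcripts of other genes, among them each other, and none did for Btnl1 or Btnl2.

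The start sites of all 4 genes were searched for motifs of intestinal transcription factors, and the stretches that Btnl1 and Btnl2 share are shown. A match describes letters only and not binding. The window from 250 bases before to 50 bases after the start (RefSeq, GRCm38.p6) held the hepatocyte nuclear factor 4 (HNF4) core motif in both genes, which 1.42% of all 32851 windows held on either strand. In the lines shown, the motif is in capitals.
Btnl1, chr17:34377094-34377121, plus strand: cagcccagtgCAAAGTCCcttgggcttt
Btnl2, chr17:34354771-34354798, plus strand: gaacagagccCAAAGTCCacctgccttc
The motif began 28 bases before the start of Btnl1 and 41 bases before that of Btnl2. The windows of Btnl4 and Btnl6 did not hold these letters and were 91.0% identical to each other. The window of Btnl4 starts 1131 bases downstream of the gene's start in GENCODE, so it does not cover that start. The GATA motif AGATAAG was in the window of Btnl2 and in 3.04% of all windows, whereas the CDX motif TTTATNG was in the window of no member and in 10.9% of all windows.

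After filtering, 16686 of 27235 barcodes were kept, with 57079945 to 66148396 UMIs (unique molecules) a library. The share kept was unequal, at 44.8% of duodenal, 53.6% of jejunal and 84.1% of ileal barcodes. The upper limit of the mitochondrial share was passed by 5129, 3689 and 1291 barcodes in the same order. How the discarded barcodes bear on the comparison of segments was not tested. The median UMI count was 12122.5 for duodenal, 12041.5 for jejunal and 6350.5 for ileal enterocytes, and the median mitochondrial share was 29.0%, 29.0% and 12.2%. The members were rare transcripts. Over all kept cells, 8809 UMIs of Btnl1, 10122 of Btnl2, 3149 of Btnl4 and 5381 of Btnl6 were counted. The 17 other butyrophilin genes of a listed family, among them the Skint genes of the skin, had 79 UMIs in all, and 9 of them had none.

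Among the named epithelial classes tested, enterocytes, the absorptive cells of the villus, had the highest level of each member. A cluster of 914 cells that stayed unnamed and entered no test had more Btnl6 (0.604, interval 0.537 to 0.677) and Btnl4 (0.281, 0.236 to 0.333) than all enterocytes (0.367 and 0.206). Of its cells 623 were ileal, and ileal enterocytes stood inside both intervals, at 0.561 and 0.260. Within segments, its Btnl6 was above enterocytes in each library, while the intervals of Btnl4 overlapped in the duodenum and the ileum. A level is the number of UMIs of the gene in 10000 UMIs, over the summed cells of a class. Its exact Poisson 95% interval reflects only the error of counting. Duodenal enterocytes had a Btnl1 level of 0.566, jejunal ones 0.592 and ileal ones 0.698. Btnl2 stood at 0.897, 0.697 and 0.639 in the same order. Btnl4 stood at 0.183, 0.188 and 0.260. Btnl6 stood at 0.280, 0.302 and 0.561. Hence Btnl2 was highest in the duodenum and the other 3 genes in the ileum.

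Early enterocytes, the less mature absorptive cells, had lower levels of all 4 genes in each of the 3 libraries. Btnl2 stood at 0.422, 0.381 and 0.157 in the duodenum, jejunum and ileum. The difference from enterocytes was 1.65 on the log2 scale (SE 0.24, adjusted p = 2.01e-05, edgeR). Btnl6 stood at 0.150, 0.190 and 0.265, a log2 difference of 1.23 (SE 0.25, adjusted p = 0.000608, edgeR). Btnl1 stood at 0.395, 0.495 and 0.390, a log2 difference of 0.87 (SE 0.29, adjusted p = 0.0200, edgeR). Btnl4 stood at 0.129, 0.152 and 0.159, a log2 difference of 0.85 (SE 0.28, adjusted p = 0.0192, edgeR). Among all 13128 genes tested, 22.8% were higher and 19.7% lower in enterocytes by the same rule. The calls of Btnl1 and Btnl4 were lost when sums were scaled by totals alone, with adjusted p of 0.157 and 0.170, and when the jejunum was left out, with 0.123 and 0.109. That of Btnl4 was also lost without the ileum, with 0.0570 (edgeR). Without integration of the libraries the calls of Btnl1, Btnl4 and Btnl6 were lost, with adjusted p of 0.236, 0.208 and 0.115, and without the library block those of Btnl1 and Btnl4, with 0.0735 and 0.0798 (edgeR).

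Intestinal stem and proliferating cells (ISC/proliferating cells) of the crypt and enteroendocrine cells (EECs) were far below enterocytes in all members. In ISC/proliferating cells Btnl1 stood at 0.0991, 0.0490 and 0.0185 in the 3 segments from proximal to distal. Btnl2 stood at 0.0441, 0.0784 and 0.0431 in the same cells. The log2 differences of enterocytes over ISC/proliferating cells lay between 3.65 for Btnl4 and 4.76 for Btnl6, with adjusted p of at most 1.55e-07 (edgeR). Among all genes, 32.7% were higher and 32.3% lower in enterocytes in that comparison. The log2 differences over EECs lay between 2.61 for Btnl4 and 4.29 for Btnl1, with adjusted p of at most 3.49e-05 (edgeR), where 28.2% of all genes were higher in enterocytes. Btnl6 was not counted in the 57 ISC/proliferating cells of the jejunum, which allows up to 0.0294 per 10000. The 24 Paneth cells had 4 UMIs of Btnl2 and none of the other 3 genes, which allows up to 0.0678 per 10000.

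Tuft cells, the chemosensory cells of the epithelium, were nearer to enterocytes in Btnl4 and Btnl6 than in Btnl1 and Btnl2. Relative to enterocytes of the duodenum, jejunum and ileum, Btnl4 stood at 55.4%, 74.0% and 95.5%, and Btnl6 at 60.5%, 40.4% and 47.3%. Btnl1 stood at 8.96%, 11.8% and 6.35%, and Btnl2 at 5.65%, 17.5% and 6.94%. Along the 3 segments Btnl4 stood at 0.101, 0.139 and 0.248, from 6, 8 and 28 UMIs. The ileal value lay within the counting error of ileal enterocytes, 0.248 with an interval of 0.165 to 0.359 beside 0.260 with 0.243 to 0.278. In T cells, taken below as the background, Btnl4 stood at 0.106, 0 and 0.0338 from duodenum to ileum, from 2, 0 and 18 UMIs. Duodenal tuft cells were thus not above that background in Btnl4, where the interval of T cells was 0.0128 to 0.383. In the jejunum the intervals overlapped as well (0.0602 to 0.275 in tuft cells, 0 to 0.0622 in T cells), and only the ileal ones were apart. Btnl6 stood at 0.169, 0.122 and 0.266 in tuft cells, below enterocytes of the same segment in every library, although the intervals overlapped in the duodenum (0.0811 to 0.311 beside 0.264 to 0.296). T cells had Btnl6 levels of 0.106 (0.0128 to 0.383), 0.0337 (0.00408 to 0.122) and 0.0751 (0.0537 to 0.102). Tuft cells overlapped them in the duodenum and the jejunum (0.0490 to 0.251). Only ileal tuft cells lay above the background in Btnl6 (0.179 to 0.379). Btnl1 stood at 0.0507, 0.0697 and 0.0443, and Btnl2 at 0.0507, 0.122 and 0.0443. The log2 difference of enterocytes over tuft cells was 4.19 for Btnl1 (SE 0.46, adjusted p = 2.78e-07, edgeR) and 4.08 for Btnl2 (SE 0.36, adjusted p = 1.71e-08, edgeR). It was 1.64 for Btnl6 (SE 0.31, adjusted p = 0.000204, edgeR) and 0.96 for Btnl4 (SE 0.34, adjusted p = 0.0257, edgeR). In this comparison 25.7% of all genes were higher in enterocytes. The call of Btnl4 held under 9 of 16 alternatives. It was lost with DESeq2 size factors (adjusted p = 0.103), with totals alone (adjusted p = 0.460) and without the duodenum or the jejunum (adjusted p of 0.0881 and 0.163, edgeR).

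Goblet cells, the mucus-secreting cells, had less of all members than enterocytes. Btnl4 stood at 0.0905, 0.0652 and 0.117 in goblet cells from the duodenum to the ileum. Btnl6 stood at 0.0830, 0.0543 and 0.0891, Btnl1 at 0.0679, 0.0543 and 0.0614, and Btnl2 at 0.121, 0.103 and 0.0535. The log2 difference of enterocytes over goblet cells was 3.38 for Btnl1, 3.14 for Btnl2, 2.35 for Btnl6 and 1.24 for Btnl4, with adjusted p of at most 0.00291 (edgeR), where 23% of all genes were higher in enterocytes. The call of Btnl4 was lost without the jejunum (adjusted p = 0.0794, edgeR).

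**Figure D1:**
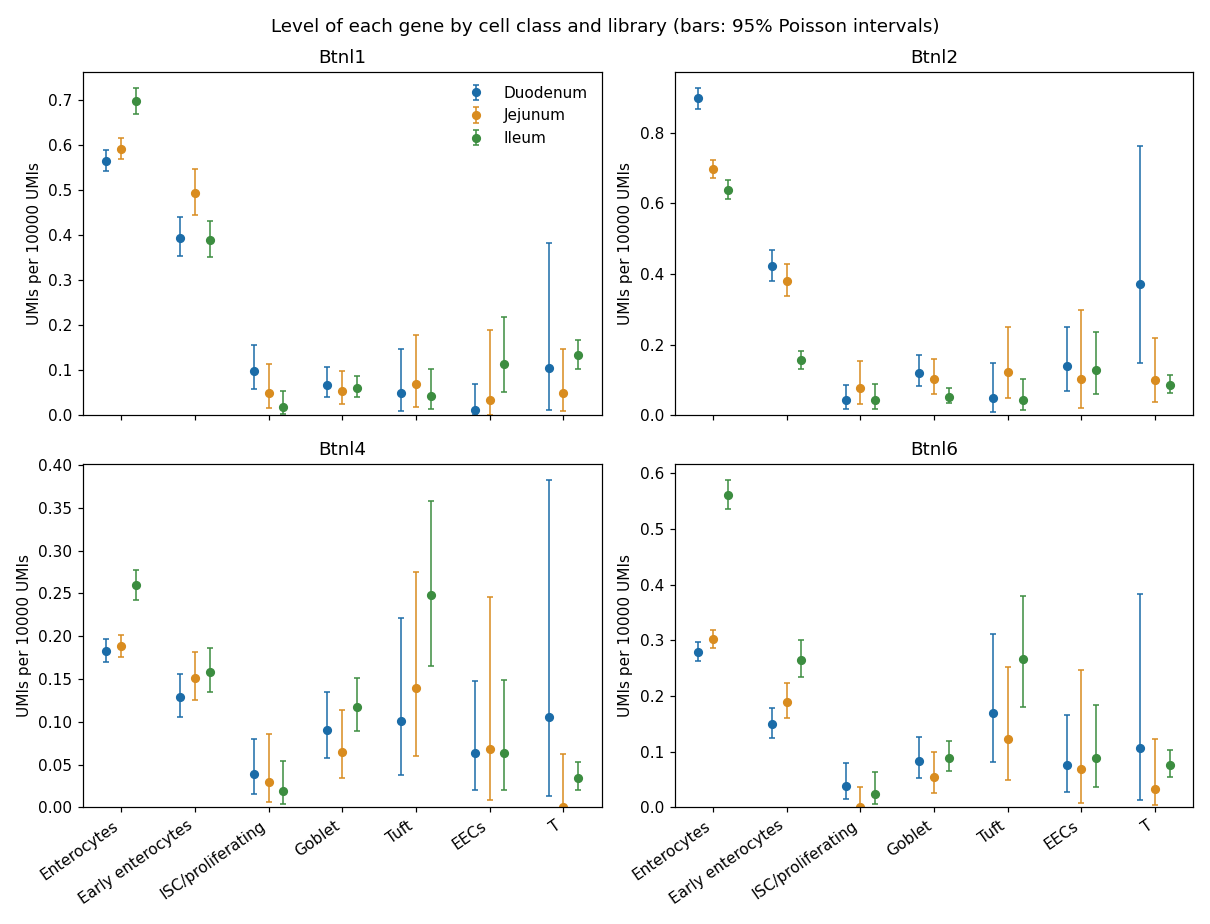
Level of each member as UMIs per 10000 UMIs (y axis) in 7 cell classes (x axis), with a point per library and bars for exact Poisson 95% intervals. Enterocytes are highest in every panel, and ileal tuft cells reach 0.248 for Btnl4 beside 0.260 in ileal enterocytes.

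Over the 3 libraries summed, enterocytes and then early enterocytes had the highest levels of Btnl1 (0.613 and 0.423) and Btnl2 (0.750 and 0.311). For Btnl4, tuft cells (0.183, interval 0.132 to 0.247) came between enterocytes (0.206, 0.198 to 0.215) and early enterocytes (0.147, 0.132 to 0.162), with intervals that overlapped both. For Btnl6, tuft cells (0.205, 0.151 to 0.272) and early enterocytes (0.205, 0.188 to 0.223) had the same level. Of the 301 tuft cells 187 were ileal, so that these sums mix the segments. Within libraries, Btnl4 in tuft cells was below early enterocytes in the duodenum (0.101 beside 0.129) and jejunum (0.139 beside 0.152). It was above them in the ileum (0.248 beside 0.159). Btnl6 stood at 0.169, 0.122 and 0.266 in tuft cells from duodenum to ileum, beside 0.150, 0.190 and 0.265 in early enterocytes. Below enterocytes and early enterocytes, the intervals of goblet cells, EECs and T cells overlapped each other for Btnl2 and for Btnl6. For Btnl1, T cells (0.124, 0.0980 to 0.156) lay above goblet cells (0.0618, 0.0471 to 0.0798).

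T cells should lack these transcripts and were taken as the background of free RNA and of droplets with more than 1 cell. Btnl2 stood at 0.371 per 10000 in the 35 T cells of the duodenum, from 7 UMIs, and at 0.101 and 0.0864 in those of the jejunum and ileum. All T cells held 76 UMIs of Btnl1, 59 of Btnl2, 20 of Btnl4 and 44 of Btnl6 in 1225 cells. The tenth of the T cells with the highest share of enterocyte marker UMIs, 123 cells, held 80.3% of these Btnl1 UMIs, 89.8% of those of Btnl2, 80% of those of Btnl4 and 77.3% of those of Btnl6. In the other 1102 T cells Btnl1 stood at 0.0306 per 10000 and Btnl2 at 0.0122, while Btnl4 stood at 0.00816 and Btnl6 at 0.0204. The log2 difference of enterocytes over all T cells lay between 3.32 for Btnl1 and 3.69 for Btnl4, with adjusted p of at most 4.59e-07 (edgeR), and 33.2% of all genes were higher and 30.8% lower in enterocytes. With every cell thinned to 800 UMIs, 5.65% of the enterocytes had a UMI of Btnl2 (interval 5.22 to 6.10) against 0.653% of the T cells (0.282 to 1.28). For Btnl4 in tuft cells the thinned share was 1.99% (0.735 to 4.29), against 0.0816% of T cells (0.00207 to 0.454). It came from 6 tuft cells, 5 of them ileal, and from 0 of the 47 duodenal tuft cells. Without thinning, Btnl2 was seen in 50.2% of enterocytes (median 9851.5 UMIs) and 3.51% of T cells (median 4266 UMIs).

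The share of each member among the UMIs of all 4 needs no total and was added after the levels had been seen. In enterocytes Btnl4 and Btnl6 together made up 24.0% of 7867 UMIs in the duodenum, 27.5% of 7803 in the jejunum and 38.1% of 7129 in the ileum. In tuft cells they made up 72.7% of 22 UMIs (interval 49.8 to 89.3), 57.7% of 26 (36.9 to 76.6) and 85.3% of 68 (74.6 to 92.7). In goblet cells they made up 47.9% of 96 (37.6 to 58.4), 43.1% of 51 (29.4 to 57.8) and 64.2% of 162 (56.3 to 71.6). The intervals of both classes lay above those of enterocytes in each segment. In EECs the share was 47.8% of 23 (26.8 to 69.4), 50% of 8 (15.7 to 84.3) and 38.7% of 31 (21.85 to 57.8). Of these, only the duodenal interval lay above enterocytes. Over the 3 libraries summed, the share was 61.9% of 21 in B cells with IgA (38.4 to 81.9). Unnamed cells had 45.5% of 983 (42.3 to 48.65), beside 29.6% of 22799 in enterocytes (29.0 to 30.2). A higher share was thus not seen in tuft and goblet cells alone. In T cells, the same share was 33.1% of 175 in the ileum (26.2 to 40.6), overlapping the enterocytes of that segment.

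**Figure D2:**
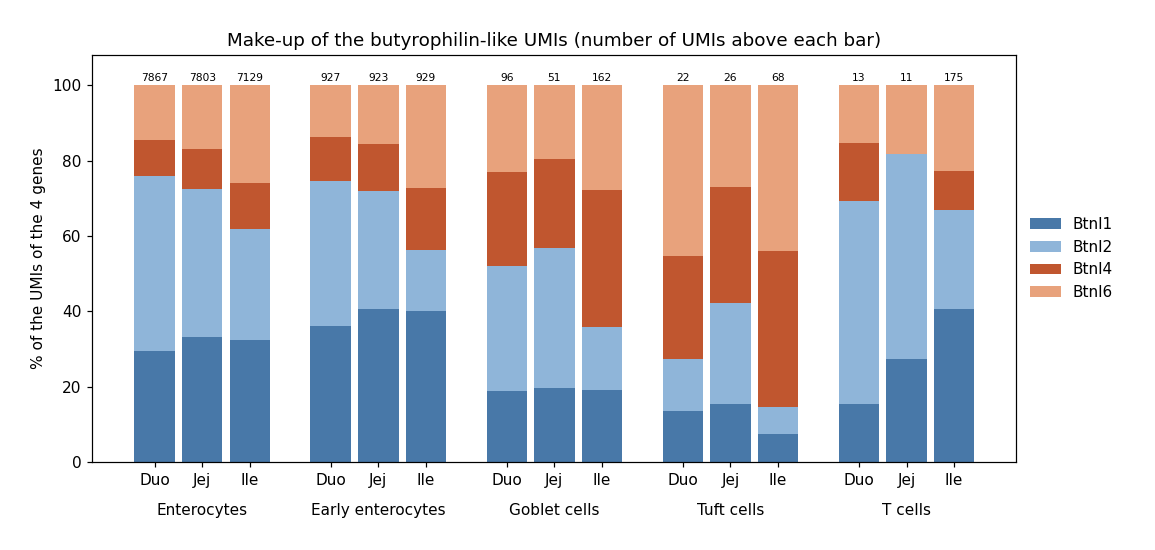
Share of each member among the UMIs of the 4 genes in percent (y axis), by class and library (x axis; Duo, duodenum; Jej, jejunum; Ile, ileum), with the number of UMIs above each bar. Btnl4 and Btnl6 take 85.3% in ileal tuft cells and 38.1% in ileal enterocytes.

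Enterocytes and early enterocytes were then placed along the villus, in 5 zones of equal cell number per library, by landmark genes of the villus bottom and tip that hold no member. Of the bottom landmarks, Reg3b, Reg3g, Dmbt1, Gsdmc2, Gsdmc4, Prss32 and Krt19 were also markers by which early enterocytes were named. In zone 1, the bottom, 38.3% to 49.4% of the cells were early enterocytes, whereas zone 2 held at most 1.11%. The comparisons with zone 1 thus partly repeat that with early enterocytes and are not independent of it. Depth also changed along the zones. The median UMI count went from 17419 in zone 1 to 8809.5 in zone 5 of the duodenum, and from 17488 to 11235.5 in the jejunum. In the ileum it was 12944 in zone 1, 5191 in zone 2 and 7397 in zone 5. Early enterocytes had a median of 24557 UMIs, beside 9851.5 in enterocytes. The part of depth in the levels was not tested. Btnl2 in the ileum stood at 0.265 in zone 1, then 0.704, 0.729, 0.666 and 0.538 up to the tip. In the duodenum Btnl2 stood at 0.592, 0.875, 0.968, 0.977 and 0.762, and in the jejunum at 0.540, 0.773, 0.755, 0.689 and 0.513. The highest zone was thus 2, 3 or 4, and in each library zone 5 was lower than zone 3. Zone 3 is the middle of the order by landmarks and was not shown to be the middle of the villus. A check of the zones used 7 mid-villus genes outside the landmarks. In zone 3 against zone 1, 1 of them was higher and none lower, beside 24.3% and 25.1% of all genes. Their highest zone ranged from 1 to 4. The tip landmark Ndrg1 was highest in zone 1 in the duodenum and jejunum.

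Btnl6 in the ileum stood at 0.365 in zone 1 and 0.672, 0.608, 0.538 and 0.422 in the zones above. In the duodenum it stood at 0.195, 0.240, 0.290, 0.301 and 0.311, so that the tip was highest there. In the jejunum it stood at 0.251, 0.349, 0.311, 0.317 and 0.199. Both the jejunum and the ileum thus had their highest Btnl6 level in zone 2. From zone 1 to zone 5, Btnl1 stood at 0.442, 0.526, 0.600, 0.664 and 0.499 in the duodenum. In the jejunum it stood at 0.566, 0.690, 0.651, 0.572 and 0.382. The ileal values of Btnl1 were 0.503, 0.759, 0.739, 0.747 and 0.521. Btnl4 ranged from 0.122 in the jejunal tip to 0.279 in ileal zone 4.

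In zone 3 all 4 genes were higher than in zone 1 in each of the 3 libraries. The log2 difference was 1.02 for Btnl2 (SE 0.18, adjusted p = 0.000619, edgeR) and 0.72 for Btnl6 (SE 0.16, adjusted p = 0.00274, edgeR). It was 0.58 for Btnl1 (SE 0.13, adjusted p = 0.00274, edgeR) and 0.47 for Btnl4 (SE 0.17, adjusted p = 0.0309, edgeR). Of all 11161 genes tested, 24.3% were higher and 25.1% lower in zone 3. None of the 4 passed when the zones were drawn over enterocytes alone, where the log2 differences were 0.30, 0.21, 0.19 and 0.16 with adjusted p of 0.0632, 0.347, 0.229 and 0.515 (edgeR), in the same order. Without the ileum the adjusted p was 0.0510 for Btnl6 and 0.171 for Btnl4, and without the duodenum 0.0904 for Btnl4 (edgeR). Without integration none of the 4 passed, with adjusted p between 0.0608 and 0.178, and without the library block only Btnl2 did (edgeR). Btnl4 passed under 11 of 19 alternatives.

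The tip against the bottom depended on the scaling, on the integration, on the library block and on the cells from which zones were drawn. With the scaling by trimmed means (TMM), the log2 difference of zone 5 over zone 1 was 0.98 for Btnl2, 0.78 for Btnl6, 0.60 for Btnl4 and 0.47 for Btnl1, with adjusted p of at most 0.00670 (edgeR), beside 33.9% of all genes higher. Scaled by totals alone it was 0.40, 0.20, 0.02 and -0.11, with adjusted p of 0.0573, 0.352, 0.941 and 0.515. With zones over enterocytes alone none of the 4 passed (adjusted p between 0.0706 and 0.912), and without integration only Btnl6 did (edgeR). When the library block was left out, only Btnl2 passed (edgeR). Without the ileum Btnl1 and Btnl4 had adjusted p of 0.0788 and 0.106, and without the duodenum Btnl4 had 0.0789 (edgeR). The TMM scaling moved the median of all genes from -0.67 to -0.08 in this comparison. On the level scale the jejunum went the other way from the duodenum and the ileum for each of the 4 genes, as Btnl1 stood at 0.382 in the tip and 0.566 in the bottom of the jejunum. Between zone 5 and zone 3 no member passed the test with TMM (unadjusted p between 0.420 and 0.813, edgeR), beside 20% of all genes higher and 18.5% lower in the tip. Btnl1 was lower at the tip with totals alone, by a log2 difference of -0.50 (adjusted p = 0.0165, edgeR).

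**Figure D3:**
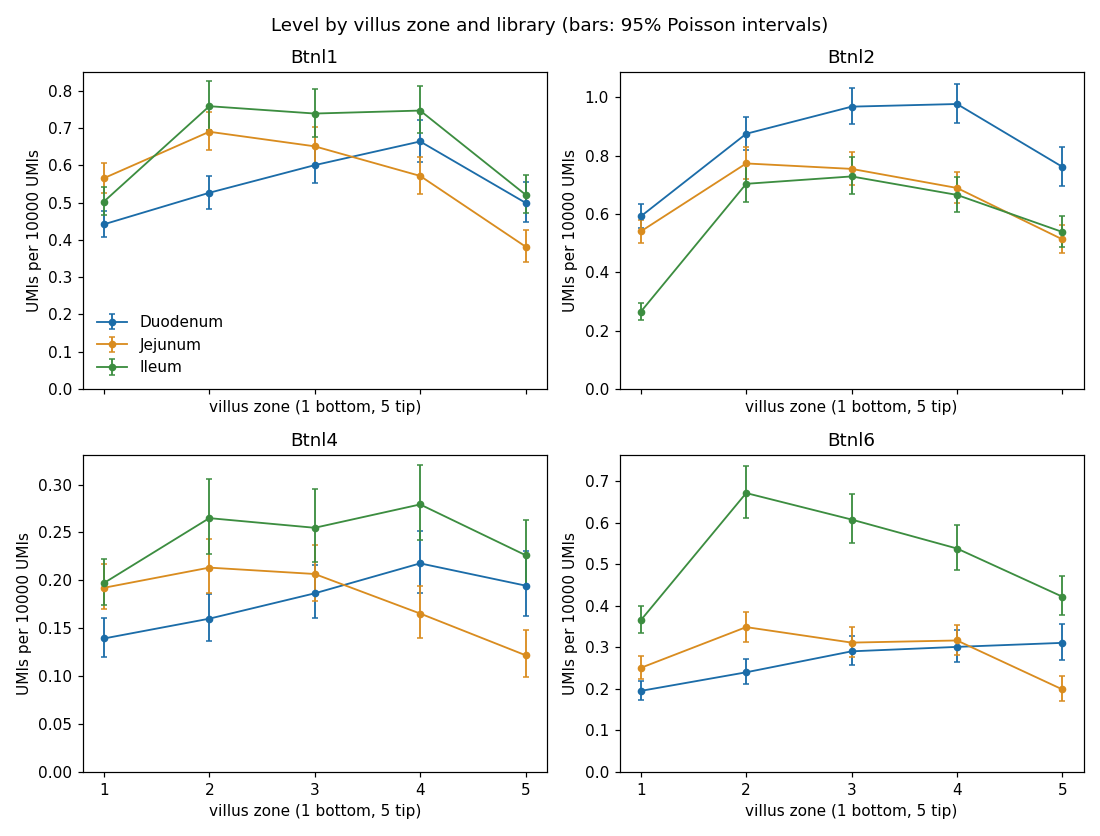
Level of each member as UMIs per 10000 UMIs (y axis) in villus zones 1, the bottom, to 5, the tip (x axis), with a line per library and bars for exact Poisson 95% intervals. Ileal Btnl2 goes from 0.265 in zone 1 to 0.729 in zone 3 and 0.538 in zone 5.

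The 3 segments had 1 library each, so that segment and library cannot be told apart, and the intervals of the ratios cover counting error only. In enterocytes, Btnl2 was 1.40 times as high in the duodenum as in the ileum (log2 ratio 0.49, interval 0.41 to 0.57). Btnl6 was 0.498 times as high in the duodenum as in the ileum (log2 ratio -1.01, -1.11 to -0.90), and Btnl4 0.705 times (log2 ratio -0.50, -0.65 to -0.36). Btnl6 was the only member past a 2-fold difference, as were 11.4% of all genes lower in the duodenum in that pair. It was not past it with mitochondrial UMIs left out (0.591), in cells with at most 20% of them (0.586) or in the middle zone (0.508). In jejunal enterocytes, Btnl6 was 0.538 times as high as in the ileum (log2 ratio -0.89), where 4.51% of all genes were 2-fold or more higher and 8.01% lower in the jejunum. Duodenum and jejunum differed beyond counting error in Btnl2 (log2 ratio 0.36, 0.29 to 0.43), whereas the intervals of the other 3 genes included 0. In that pair 7.95% of all genes were 2-fold or more higher and 4.5% lower in the duodenum. In cells with at most 20% mitochondrial UMIs, the interval of Btnl2 included 0 (log2 ratio 0.15, -0.01 to 0.31), whereas that of Btnl6 did not (0.27, 0.01 to 0.53).

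The mitochondrial share of the enterocytes moved with the segment, and its part in the ratios was measured by leaving mitochondrial UMIs out of the totals. The log2 ratio of duodenum over ileum was then 0.74 for Btnl2 (interval 0.66 to 0.81), -0.76 for Btnl6 (-0.87 to -0.65) and -0.26 for Btnl4 (-0.40 to -0.12). That of Btnl1 went from -0.30 to -0.06 (-0.14 to 0.03), so that a segment difference of Btnl1 was not seen on this scale. In cells with at most 20% mitochondrial UMIs, the ratio was 0.27 for Btnl2 (0.13 to 0.40) and -0.77 for Btnl6 (-0.97 to -0.57). Btnl2 made up 46.6% of the members' UMIs in duodenal enterocytes (interval 45.5 to 47.7), 39.2% in the jejunum (38.1 to 40.3) and 29.6% in the ileum (28.5 to 30.7). Btnl6 made up 14.5%, 16.97% and 26.0% in the same order. In early enterocytes the share of Btnl2 was 38.5%, 31.3% and 16.2%, and that of Btnl6 13.7%, 15.6% and 27.3%.

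**Figure D4:**
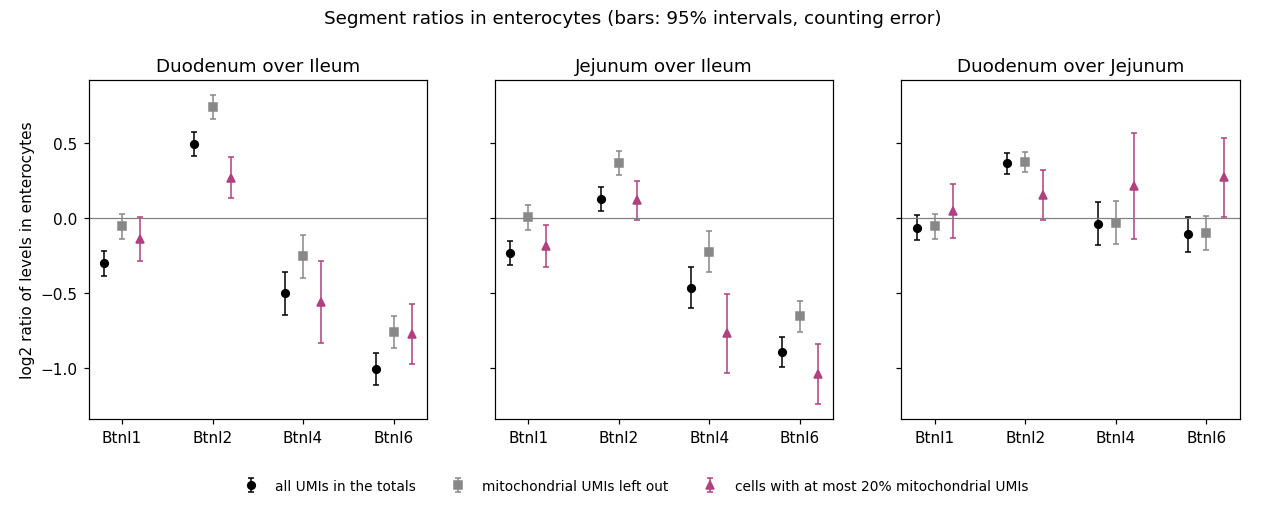
Log2 ratio of the level in enterocytes between segments (y axis) for each member (x axis), with all UMIs in the totals, with mitochondrial UMIs left out, and in cells with at most 20% mitochondrial UMIs; bars are 95% intervals of counting error. Btnl2 is above 0 and Btnl6 below 0 in duodenum over ileum with each of the 3 choices.

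Members were also counted together within cells. In 9703 enterocytes and early enterocytes thinned to 5000 UMIs, 41.4% had no UMI of any member, 40.02% had 1 member, and 15.7% had 2. Btnl1 and Btnl2 were both seen in 750 cells, beside 717 from the product of their shares within each zone. Btnl4 and Btnl6 were both seen in 215 cells, beside 164 from the product. That excess was in the duodenum (55 cells beside 36.2) and the ileum (118 beside 83.1) and not in the jejunum (42 beside 44.6). The other 5 pairs had 1.03 to 1.08 times the product over the 3 libraries, and in the ileum up to 1.18 times, for Btnl2 and Btnl4.

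The genes whose pattern was most like that of each member were found over 28 sums of epithelial classes and zones, which share libraries and totals, among 2709 genes. For Btnl1 these included Ces2e, St3gal4, Dgat1 and Tcn2, with Pearson correlations of 0.971 to 0.964. For Btnl2 they included 2010106E10Rik, Treh, Xdh and Slc26a6, with 0.974 to 0.962. Btnl4 was most like Btnl6 (0.955), and next came Vil1, Tmem236, Myo1a and Myo5b. Btnl6 was most like Btnl4, followed by Slc52a2, Vil1, Myo5b and Sult2b1. Treh encodes an enzyme of the brush border, and Vil1 and Myo1a encode proteins of its actin core. Btnl1 and Btnl2 had a correlation of 0.951 with each other, whereas Btnl2 and Btnl4 had 0.764.

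The genes around the cluster were compared as well. The nearest protein-coding neighbours before Btnl2 are the MHC class II genes H2-Aa, H2-Eb1 and H2-Eb2, and those after Btnl6 are Notch4, Gpsm3 and Pbx2. H2-Aa stood at 0.372, 0.254 and 1.52 per 10000 in enterocytes of the duodenum, jejunum and ileum, and H2-Eb1 at 0.296, 0.240 and 0.896. H2-Aa was higher in enterocytes than in tuft cells by 2.39 on the log2 scale (adjusted p = 0.00429, edgeR) and in zone 3 than in zone 1 by 1.04 (adjusted p = 0.00807, edgeR). Pbx2, a transcription factor gene, had a log2 difference of -0.19 between enterocytes and tuft cells (adjusted p = 0.539, edgeR). H2-Eb2 and Notch4 were too low to be tested. Of the 4 neighbours tested, 2 were higher and 1 lower in enterocytes than in tuft cells, beside 25.7% and 23% of all genes. In zone 3 against zone 1, 1 was higher and 0 lower, beside 24.3% and 25.1%. In zone 5 against zone 1, 0 were called, and against zone 3, 2 were lower in zone 5, beside 18.5% of all genes. BC051142, which lies between Btnl1 and Btnl4, had 64 UMIs in all enterocytes.

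Other genes by which the epithelium acts on intraepithelial lymphocytes were given from a list of 16, of which 11 were tested along the villus. Between tip and bottom 4 were higher and 4 lower, beside 33.9% and 36.9% of all genes. Without Il18, which is itself a landmark of the villus bottom, 4 of 10 were higher and 3 lower, with a median log2 difference of -0.03 beside -0.08 over all genes. Il15, a survival factor of these lymphocytes, was higher at the tip by 2.57 on the log2 scale (adjusted p = 3.32e-08, edgeR), as was Cdh1, the ligand of their integrin CD103, by 1.80 (adjusted p = 5.77e-05, edgeR). Ccl25, the chemokine that attracts them to the small intestine, was lower at the tip, by a log2 difference of -3.76 (adjusted p = 1.77e-08, edgeR). H2-T3, which encodes a ligand of CD8αα, had -1.15 (adjusted p = 0.000140, edgeR), and Tnfrsf14 -3.01 (adjusted p = 0.00209, edgeR). Against tuft cells, 7 of 12 were higher in enterocytes and 3 lower, beside 25.7% and 23% of all genes.

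Of 18 intestinal transcription factors, Klf4 and Creb3l3 are landmarks of the tip, so that their values were fixed by the zones. Of the other 16, 8 were higher and 6 lower at the tip than at the bottom, beside 33.9% and 36.9% of all genes, with a median log2 difference of 0.34. Hnf4a, a regulator of enterocyte genes, was higher at the tip by 2.07 (adjusted p = 6.94e-07, edgeR), whereas Nr1h4, the bile acid receptor, had -1.81 (adjusted p = 0.000478, edgeR). Prdm1 was higher by 5.49 (adjusted p = 4.60e-07, edgeR) and Klf5, a factor of proliferating cells, had -1.74 (adjusted p = 7.74e-07, edgeR). In enterocytes against tuft cells 12 of the 18 were higher and 2 lower, beside 25.7% and 23% of all genes, with a median of 1.73 beside 0.12 over all genes. Cdx1, a homeobox factor, was lower in enterocytes than in tuft cells, by a log2 difference of -1.99 (adjusted p = 7.11e-06, edgeR).

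T cells with transcripts of gamma-delta chains were present in each library. Trdc, the constant region of the delta chain, was counted in 14 of 35 T cells of the duodenum, 59 of 107 of the jejunum and 491 of 1083 of the ileum. Tcrg-V7, the variable segment of the Vγ7 chain, was counted in 3, 5 and 59 of them, which is 8.57%, 4.67% and 5.45%. These came from 72 UMIs in all T cells. Since the libraries were read from the 3′ end, they were not taken as the share of cells that carry the chain. All 13 gamma-delta T cell genes of the list found in the files were lower in enterocytes than in T cells, beside 30.8% of all genes, with a median log2 difference of -8.85. Trdc, Cd8a and Gzma of this list are also markers by which T cells were named. The outcome was therefore largely fixed by the naming and is not a test. Within the enterocytes and early enterocytes, 4 of 11 such genes were higher at the tip than at the bottom and none lower, beside 33.9% and 36.9% of all genes, and the part of free RNA and of mixed droplets in this was not tested. Gzma, a granzyme of these T cells, was counted 1198 times in enterocytes, at 0.0147 per 10000 in duodenal, 0.0698 in jejunal and 0.252 in ileal enterocytes.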

How the data were processed

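Single-cell libraries were made with 10x 3′ chemistry from the duodenum, jejunum and ileum, 1 a segment, each from the pooled cells of 3 mice. The deposited matrices hold raw UMI counts per gene and cell, which the authors made with Cell Ranger 3.0.2 on GRCm38 (mm10). Total UMIs were 98518847, 87656078 and 78074516. Kept cells had between 800 and 50000 UMIs, between 200 and 6000 genes, and a mitochondrial share of no more than 40%. Among kept cells, the pairs of libraries shared between 4 and 12 barcodes.

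Cells were clustered in Seurat 5.3.0 after anchor integration (2000 variable genes, 30 components, resolution 0.8), with 21 butyrophilin family genes left out. Clusters were named from listed markers by a naming rule that was set after the clusters had been seen, and 1492 cells stayed unnamed. Scrublet in scanpy 1.11.5 marked 146 cells, all in the ileum, and none in the other libraries, so it was not relied on and doublets were removed only in an alternative. That alternative left out cells marked by Scrublet or holding markers of both epithelial and immune cells. It removed 34 of 35 duodenal, 104 of 107 jejunal and 871 of 1083 ileal T cells. Its T cell comparison thus rests on the ileal sum alone. UMIs were summed per library and class or zone (at least 10 cells) and tested with edgeR 4.0.16 (quasi-likelihood, TMM, library as a block, Benjamini-Hochberg adjustment over all genes tested, threshold 0.05) in R 4.3.3. The sums of one library come from the same pool of mice. The block removes differences in level between libraries. The p-values thus measure how class or zone differences vary between 3 libraries that are also 3 segments. All class sums shared 1 fit and 1 estimate of the spread, as did all zone sums. A p-value therefore also draws on classes or zones outside its own comparison. Shares of cells used cells thinned to 800 UMIs and exact binomial intervals. Limits for a count of 0 used 3 counts, and intervals cover counting error only. For the zones, the log level of each landmark gene was scaled to a common mean and spread within each library. The mean over the bottom genes was subtracted from that over the tip genes, and cells were ranked within each library. The named genes were the members, the listed genes, and the 5 genes most like each member, of which some are not reported here. The tests were tested on simulated data, where a log2 change of 1 was recovered for 9% of changed genes in enterocytes over tuft cells and 61% in zone 5 over zone 1. The members and lists were chosen with earlier results of these data known.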

Additional observations from a re-analysis of the deposited data

Results flagged for a closer look

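The jejunum differed in direction from the other 2 segments between the villus tip (zone 5) and bottom (zone 1), a difference that was not tested. On the level scale, the log2 ratio in the jejunum was -0.57 for Btnl1, -0.075 for Btnl2, -0.66 for Btnl4 and -0.34 for Btnl6. In the duodenum it was 0.18, 0.36, 0.48 and 0.67 in the same order, and in the ileum 0.05, 1.02, 0.20 and 0.21. The median of all genes was -0.27 in the jejunum, -0.13 in the duodenum and -0.16 in the ileum. The counting intervals included 0 for Btnl2 in the jejunum (-0.25 to 0.10), for Btnl1 in the duodenum and the ileum, and for Btnl4 in the ileum. Relative to the median of all genes, jejunal Btnl2 was at 0.20, the direction of the other segments.

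A cluster of 914 cells that stayed unnamed, led by pancreatic protease genes with Fgf15 and Fabp6, also held the members and was used in no comparison. Btnl1 stood there at 0.554 UMIs per 10000, Btnl2 at 0.476, Btnl4 at 0.281 and Btnl6 at 0.604, each above the level in T cells. Btnl6 was also above enterocytes of the same segment in each library, at 0.481, 0.452 and 0.684 from duodenum to ileum beside 0.280, 0.302 and 0.561, with intervals that did not overlap. For Btnl4 the intervals overlapped in the duodenum and the ileum.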

How the results depend on the processing

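Of the 24 class comparisons, all 24 passed as reported, and between 20 and 23 passed when 1 library was left out. Over 16 alternatives, 366 of 384 values kept their direction and their side of the threshold and 18 no longer passed. Of the 12 zone comparisons, 8 passed as reported. Without TMM 4 passed, without the library block 2, without integration 1, and with zones over enterocytes alone 0 (edgeR), while leaving out 1 library gave 4 to 8. The zone 5 over zone 1 log2 difference of Btnl1 turned to -0.11 without TMM, and the Jejunum over Ileum log2 ratio of Btnl1 turned to 0.0023 with mitochondrial genes left out of the totals. In other cases the cause was not tested. The share of enterocytes with a UMI of Btnl2 was 5.65% after thinning and 50.2% without. No paired analysis was possible because each segment had 1 library, as far as segments are compared with each other; class and zone sums were paired within a library by the block. The low counts of tuft cells, EECs and ISC/proliferating cells limit what could be seen there.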
